A study of Mus musculus with 2 samples.

Results

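The SNARE proteins, synaptotagmins and their regulators are the machinery that fuses hormone granules with the surface of endocrine cells. They were taken as the genes whose platform symbol starts with Syt, Sytl, Stx, Stxbp, Vamp, Snap, Cplx or Unc13 followed by the family number or letter, joined by Napa, Napb and Nsf. Sytl4 was left out of this set, and Rph3al is not analysed here. The rule found 53 genes among the 12393 genes named on the array, with 103 probe sets in all. Islets of wild-type and PERK knockout mice were compared 2 days after birth, with 1 array for each genotype. PERK is the product of Eif2ak3, an endoplasmic reticulum (ER) kinase that slows translation through eIF2 alpha under ER stress. The wild-type mice are labelled as of mixed strain and mixed sex, while for the knockout the sources used here do not give strain, sex or the exons lost, nor any pooling of pups. Both groups were isolated by collagenase P digestion, and biotin-labelled cRNA was hybridised to Affymetrix mouse 430A arrays.

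In regulated secretion, a VAMP on the granule pairs with a syntaxin and a SNAP-25 family protein on the plasma membrane, and the zippering of these SNAREs pulls the membranes together. Munc18 and Munc13 proteins prepare the syntaxin, complexins clamp and promote fusion, and synaptotagmins sense calcium. The ATPase NSF and its SNAP adaptors then take the spent complexes apart. In beta cells the granule VAMP is chiefly VAMP2, its partners are syntaxin 1A and SNAP-25, and calcium that enters after glucose closes potassium channels triggers release. Other syntaxins and VAMPs serve traffic between the ER, the Golgi, endosomes and lysosomes.

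RefSeq promoter sequences of GRCm38.p6 were matched for 41 of the 53 genes, in 51 windows. Of the 5 genes farthest from equality, Syt13 and Vamp2, both lower in the knockout, had no matched window. The windows of the others, Sytl1, Syt9 and Snap91, are shown. Each runs 5′ to 3′ on the gene's strand over the 250 bases before the annotated start. They lie at chr4:133263088-133263337 (minus strand), chr7:107370540-107370789 (plus strand) and chr9:86880709-86880958 (minus strand). Capitals mark GC boxes (GGGCGG on either strand), which bind SP1 family factors.
Sytl1: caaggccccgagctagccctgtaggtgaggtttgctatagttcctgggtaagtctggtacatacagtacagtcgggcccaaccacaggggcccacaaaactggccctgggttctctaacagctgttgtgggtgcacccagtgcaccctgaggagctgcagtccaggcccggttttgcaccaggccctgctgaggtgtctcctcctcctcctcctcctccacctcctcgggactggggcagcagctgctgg
Syt9: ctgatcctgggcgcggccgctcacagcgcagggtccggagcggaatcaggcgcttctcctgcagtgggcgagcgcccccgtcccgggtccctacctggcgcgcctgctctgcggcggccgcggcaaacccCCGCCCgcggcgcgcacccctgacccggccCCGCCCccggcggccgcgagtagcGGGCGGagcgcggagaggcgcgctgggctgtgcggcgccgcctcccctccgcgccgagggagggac
Snap91: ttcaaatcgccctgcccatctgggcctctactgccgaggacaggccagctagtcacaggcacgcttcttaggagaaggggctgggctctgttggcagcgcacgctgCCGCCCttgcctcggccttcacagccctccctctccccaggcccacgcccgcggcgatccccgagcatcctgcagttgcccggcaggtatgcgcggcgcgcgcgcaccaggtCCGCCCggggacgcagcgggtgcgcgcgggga
The Syt9 window held 3 GC boxes and the Snap91 window 2, while the Sytl1 window held 0. A GC box was present in 54.9% of the windows of these genes and in 32.7% of all 32851 windows. The windows differed in base composition too, with a median GC content of 60.8% for these genes against 52.4% overall. Motifs that stress pathways use were searched on both strands, and none was found in the 3 windows shown. The cAMP response element TGACGTCA was present in 1 of 51 windows, that of Stxbp3, against 1.55% of all windows. The ATF4 and C/EBP site TGATGNAAN was present in 1, that of Syt1, against 3.44%. The ER stress element (ERSE) was present in 0 of 51, against 0.113%. A match is a description of these letters, not a binding site.

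Each value below is the signal of a gene's brightest probe set on 1 array, in arbitrary units, and a ratio sets 1 library against the other. Where a pair of signals is given, the wild type comes first and the knockout follows. A floor was set at 39.8, the 40th percentile over both arrays, and lower signals count as unmeasured. Of the 53 genes, 40 were above the floor on both arrays and are called measured, 2 were above it on only 1 array and have a bound, and 11 lay at the floor on both. The measured genes passed a filter on low signal, so counts among them do not stand for all 53. With no replicates there is no p-value. The only error at hand is the disagreement between probe sets of the same gene, an SD of 0.26 on the log2 scale per probe set over 2597 genes and 0.23 over the 20 members with at least 2 measured probe sets. Levels of different genes cannot be compared, since each probe set has its own brightness.

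The targeted gene Eif2ak3 had signals of 118 and 58.7, and whether this probe set lies in the deleted part is not known here. Islet hormones were bright on both arrays, with Ins2 at 5652 and 6163. Immune markers were higher in the knockout library, with 14 of 19 measured members at least 1.5-fold higher and a signal summed over 24 markers of 2180 and 5336. The sum was 1773 and 2295 for 11 neuronal and Schwann cell markers, 50759 and 54087 for 19 acinar markers and 37357 and 40882 for 7 islet hormones. The brightest genes weigh most in these sums. Many acinar and hormone genes lay not far below the array maxima of 8133 and 8242. Dimmer markers could differ more. At least 1.5-fold higher were 4 of 19 acinar markers and 1 of 7 islet hormones, Ghrl (1461 and 2503), against 4.19% of all measured genes. On both lists 0 were at least 1.5-fold lower. For beta-actin, the 3' probe set was 1.61 times as bright as the 5' one in the wild type and 2.01 times in the knockout, a ratio that depends on how far the cRNA extends. For Gapdh it went the other way, the ratio being 1.01 and 0.867. In whole islets, fewer cells of a type and less RNA per cell cannot be told apart.

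None of the 40 measured exocytosis genes was 2-fold apart between the libraries. Sytl1, which has a bound, and Sytl4, left out of the set, are not among the 40 and are described below. Among all 8133 measured genes, 0.652% were at least 2-fold lower and 0.516% at least 2-fold higher in the knockout. With shares this small, finding none among 40 says little about these genes. At 1.5-fold, Syt13 and Vamp2 were lower (5% of the 40) and Snap91 and Syt9 were higher (5%). Over all measured genes the shares were 2.95% lower and 4.19% higher. With quantile normalisation these became 3.60% and 3.24%, while 3 exocytosis genes were lower, Syt5 having joined, and 2 were higher. The 5% shares of the exocytosis genes rest on 2 genes in each direction. The median log2 ratio of the 40 genes was 0.13, against 0.03 over all measured genes. On second brightest probe sets the medians were 0.0231 over 20 exocytosis genes and 0.0400 over 2597 genes. Only genes with 2 measured probe sets enter there, so the shift from 0.13 is not one of probe set alone. Of the 40, 26 (65%) were above equality, against 54.9% of all measured genes, and 14 were below it, against 45.1%. With median centring, 22 were above equality, and the share of all measured genes under that setting was not computed. The medians were then 0.0921 for the 40 and -0.0051 over all measured genes. The SD of the log2 ratios was 0.33 for these genes and 0.33 for all measured genes. In all, 24 of the 40 (60%) lay closer to equality than the probe set SD, against 63.1% of all measured genes.

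**Figure D1:**
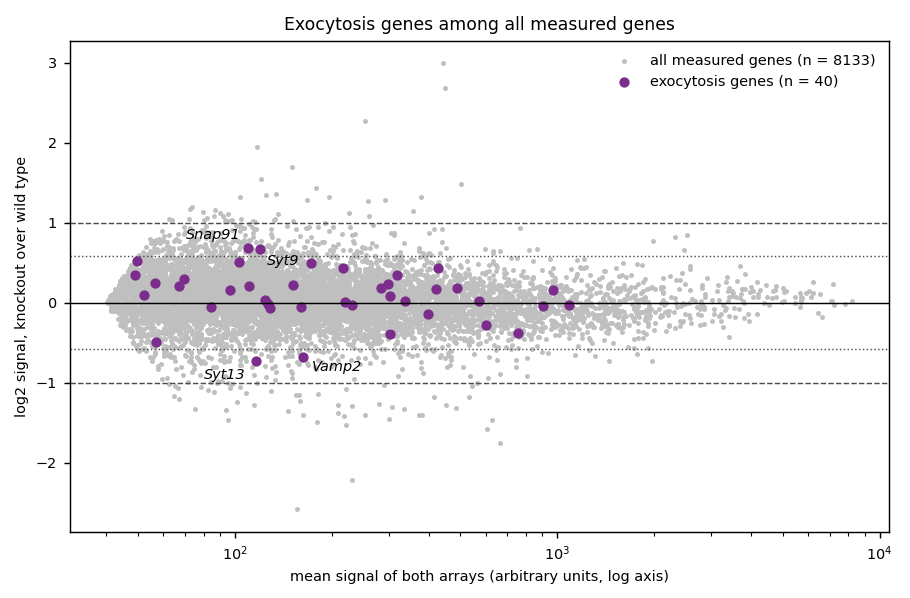
Log2 ratio of knockout over wild-type signal (vertical axis) against the mean signal of both arrays (horizontal log axis, arbitrary units), with 8133 measured genes in grey and the 40 measured exocytosis genes in purple; dashed lines mark 2-fold and dotted lines 1.5-fold. The purple points lie within the grey cloud and inside the 2-fold lines, and Syt13, Vamp2, Syt9 and Snap91 lie just past the 1.5-fold lines.

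The SNAREs of the plasma membrane were close to equal in the 2 libraries. All 6 measured members had log2 ratios between -0.07 and 0.19, with a median of -0.02. Snap25, the neuronal and endocrine SNARE that bridges syntaxin and VAMP, had signals of 396.0 and 447 (log2 ratio 0.18). Stx1a, its syntaxin partner in beta cells, had 164 and 157 (-0.06), and a dimmer probe set gave 0.01. These differences were smaller than the disagreement between probe sets.

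Stx4a, as the platform names syntaxin 4, which also takes part in insulin granule fusion, had signals of 265 and 302 (0.19). Stx3, a syntaxin of apical membranes and granule-to-granule fusion, had 335 and 339 (0.02, down to -0.02 under other scalings). A second measured probe set of Stx3, at 93.4 and 62.8, gave -0.57. The Stx3 probe sets thus disagreed by 0.59, more than for any other plasma membrane SNARE measured on 2 probe sets. Snap23, the widely expressed relative of Snap25, had 85.9 and 82.6 (-0.06 and -0.04 on its 2 measured probe sets), and Stx2 had 132 and 126 (-0.07). Stx19 was at the floor on both arrays.

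Most SNAREs of inner membranes were also near equality. The 9 measured genes had a median log2 ratio of 0.00 and a range from -0.28 to 0.43, with 0 at 1.5-fold. Snap47, a SNAP-25 relative of inner membranes, had signals of 1097 and 1076 (-0.03, up to 0.03 under other scalings). Stx5a, the syntaxin of ER to Golgi transport, had 915 and 892 (-0.04, and -0.11 on its other measured probe set). Stx18, a syntaxin of the ER, had 219.9 and 221, with 4 other probe sets between -0.02 and 0.34.

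The late endosomal pair of Stx7 and Stx8 lay on opposite sides of equality. Stx7 had signals of 657 and 542 (-0.28), the lowest ratio of the inner membrane group. Stx8, which sits in the same SNARE complex, had 364 and 492 (0.43, 1.35-fold higher), the highest of that group. A dimmer probe set of Stx8 gave 0.15. Neither reached 1.5-fold.

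The other inner membrane SNAREs differed little. Stx12, of recycling endosomes, had 417 and 377 (-0.14). Stx6, of the trans-Golgi network, had 295 and 311 (0.08), and its 3 other measured probe sets ran from -0.20 to 0.27. Stx17, of autophagosomes, had 91.5 and 102 (0.16, and 0.17 on another probe set). The 2 probe sets of Stx17 thus gave nearly the same small difference. Snap29, which pairs with Stx17, had 62.3 and 72.3 (0.21, and 0.06 on another).

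**Figure D2:**
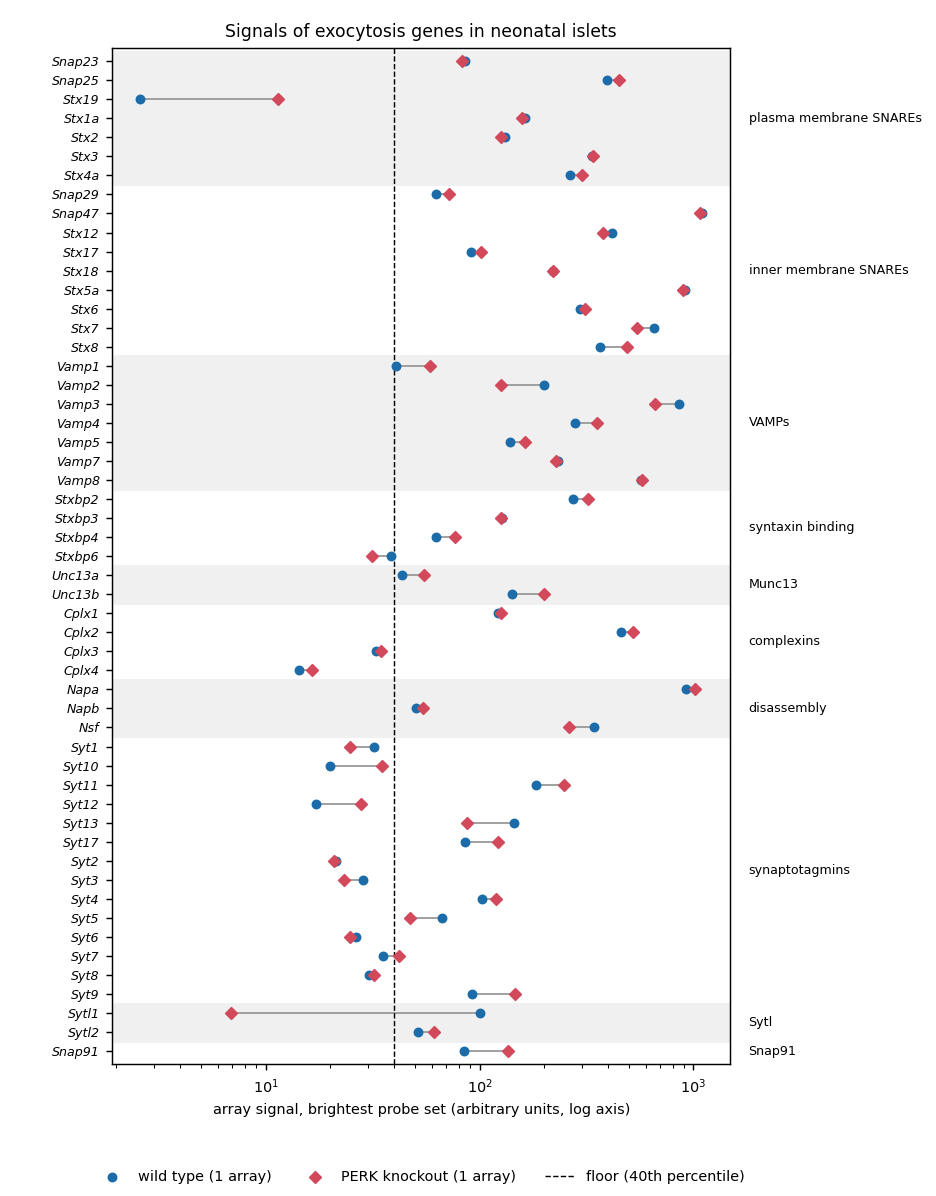
Signal of the brightest probe set of all 53 exocytosis genes (horizontal log axis, arbitrary units) in wild-type islets (blue circles, 1 array) and PERK knockout islets (red diamonds, 1 array), grouped by role, with the floor of 39.8 as a dashed line. Most pairs of points nearly coincide, and Sytl1 shows the widest gap among genes above the floor on at least 1 array, from 101 to 6.90.

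Among the VAMPs, the granule VAMP was lower in the knockout library and the others scattered around equality. Vamp2, the VAMP of insulin granules and synaptic vesicles, had signals of 201 and 126, 1.60-fold lower in the knockout. Its other probe set was at the floor on both arrays, so the ratio rests on 1 probe set. It was at least 1.5-fold lower in all 9 alternative settings that used this probe set, with log2 ratios from -0.73 to -0.61. All of them read the same pair of signals, and the changes of floor could not move the value. They are therefore no second reading.

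Vamp3 (cellubrevin), a relative that serves recycling endosomes and can stand in for Vamp2, had 854 and 658 (log2 ratio -0.38, 1.30-fold lower). Its 4 other measured probe sets ran from -0.32 to 0.10. The 3 brightest of its 5 probe sets were lower in the knockout, and the 2 dimmest gave 0.10 and -0.04. Vamp1, the closest relative of Vamp2 in neurons, went the other way, with 40.9 and 58.5 (0.52), but its wild-type signal lay just above the floor.

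Vamp4, of the trans-Golgi network and immature granules, had 280.4 and 355 (0.34, and 0.04 on another probe set). Vamp7, of lysosomes, had 232 and 228 (-0.02, and 0.30 on another). For both genes the larger difference was seen on a single probe set. Vamp5 had 139.5 and 163 (0.22). Vamp8, the VAMP of acinar zymogen granules and late endosomes, had 569 and 576 (0.02, down to -0.02 under other scalings). The 7 VAMPs together had a median of 0.02 and a range from -0.68 to 0.52.

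Partners that act on syntaxins were measured for 3 of 4 syntaxin-binding proteins. Stxbp2 (Munc18-2), which works in epithelial and blood cells, had signals of 275 and 322 (0.23), with 0.08 and -0.08 on 2 other probe sets. Immune markers had a median log2 ratio of 0.72, and their part in the ratio of Stxbp2 was not tested. Stxbp3 (Munc18c), the partner of syntaxin 4, had 128 and 126 (-0.02). Stxbp4 (Synip), also a syntaxin 4 partner, had 62.6 and 76.7 (0.29). Stxbp6 (amisyn) was at the floor on both arrays. None of them was 1.5-fold apart.

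Both Munc13 priming factors had a higher signal in the knockout library, short of 1.5-fold. Unc13b (Munc13-2) had 143 and 201 (0.50, 1.41-fold higher). Unc13a (Munc13-1), which primes granules in beta cells, had 43.2 and 54.8 (0.34), both close to the floor. Each was measured on 1 probe set.

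Both measured complexins were near equality on their brightest probe sets. Cplx2 had 459 and 523 (0.19), and Cplx1 had 123 and 126 (0.03, down to -0.04 under other scalings). The other 2 probe sets of Cplx1 gave -0.05 and 0.29. Cplx3 and Cplx4, the complexins of retinal synapses, were at the floor on both arrays.

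Nsf, the ATPase that separates spent SNARE complexes, had 344 and 262 (-0.40) on the brighter probe set, against 74.2 and 100.2 (0.43) on the dimmer. It was the single member whose probe sets lay beyond 0.25 in opposite directions, so these arrays give no direction for Nsf. Napa (alpha-SNAP), the adaptor that brings NSF to the complexes, had 919 and 1022 (0.15), and its other probe set gave -0.44. The 2 probe sets of Napa therefore disagreed as well. Napb (beta-SNAP) had 50.6 and 54.3 (0.10).

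Synaptotagmins held 2 of the 4 measured genes past 1.5-fold, and these differed in direction. Of 14 synaptotagmins, 6 were measured, 1 was bounded and 7 lay at the floor. Syt13, an atypical synaptotagmin of endocrine cells that does not bind calcium, had signals of 146 and 87.5, 1.66-fold lower in the knockout. Syt9, a calcium sensor found on dense-core granules, had 92.2 and 147, 1.59-fold higher. Each has 1 probe set, so neither ratio has a second reading.

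The remaining measured synaptotagmins did not reach 1.5-fold. Syt5, a calcium-binding synaptotagmin, had 66.5 and 47.2 (-0.49, 1.41-fold lower), and passed 1.5-fold with quantile and loess normalisation. Syt11, which does not bind calcium, had 184 and 248 (0.43). Its second probe set gave 0.45, and the dimmest gave -0.22. Syt17 had 85.1 and 121 (0.51) on the brighter probe set, against -0.07 on the dimmer. Syt4, which sets the calcium sensitivity of maturing beta cells, had 103 and 119 (0.21, and 0.29 on another probe set). The signal of Syt4 was thus slightly higher in the knockout on both of its probe sets.

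Syt7, a high-affinity calcium sensor of insulin granules, was above the floor in the knockout alone (35.4 and 42.1), which bounds its ratio at 1.06-fold or more. Syt1 and Syt2, the fast calcium sensors of synapses, were at the floor on both arrays, as were Syt3, Syt6, Syt8, Syt10 and Syt12. At this floor no direction can be read for these 7 genes. Syt10 (20.1 and 35.0) was above a floor at the 25th percentile, where it counted as at least 1.5-fold higher.

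**Figure D3:**
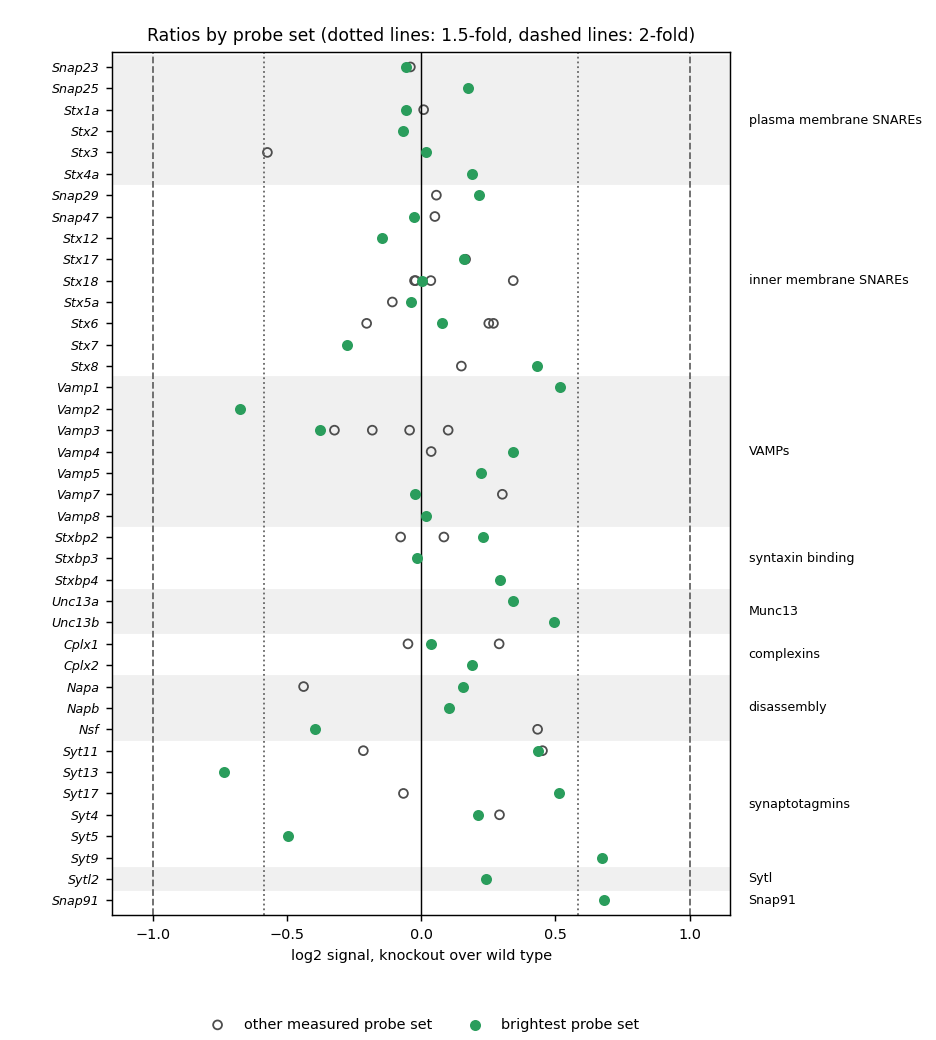
Log2 ratio of knockout over wild-type signal (horizontal axis) for each measured probe set of the 40 measured genes, grouped by role, with the brightest probe set filled and the others open; dotted lines mark 1.5-fold and dashed lines 2-fold. The filled points of Syt13, Vamp2, Syt9 and Snap91 lie past the dotted lines with no open point beside them, and Nsf, Napa, Stx3 and Syt17 have open points far from the filled one.

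The synaptotagmin-like protein Sytl1 had the largest gap of all 53 genes with a fold. Sytl1 (JFC1), which links Rab27 on vesicles to the membrane, had signals of 101 and 6.90. Since the knockout signal lay under the floor, it was at least 2.53-fold lower in the knockout. Of the 8826 genes measured or with a bound, 56 (0.634%) were at least 2-fold lower, 53 of them measured and 3, Sytl1 among them, as a bound out of 693 genes with a bound. The bound rests on 1 probe set with no second reading, and with a floor at the 60th percentile it shrank to a log2 ratio of -0.15. Sytl2, which has the same Rab27-binding domain and acts in glucagon release, had 51.8 and 61.3 (0.24).

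Snap91 matches the naming rule but encodes AP180, a neuronal clathrin adaptor that retrieves vesicle membrane after fusion. Its signals were 84.5 and 135, 1.60-fold higher in the knockout on its 1 probe set. Of 10 measured neuronal and Schwann cell markers, 7 were above equality, against 54.9% of all measured genes. Their median log2 ratio was 0.39, against 0.03 over all measured genes. At least 1.5-fold higher were 3 of these markers, against 4.19% of all measured genes. The 3 were Stmn2 (signals of 459.7 and 731), Gap43 (132.5 and 205) and Nefl (97.4 and 151). Th, Dbh and Sox10 lay below equality, with log2 ratios of -0.26, -0.30 and -0.04, and S100b was at the floor on both arrays. Neurons also express Vamp1 (0.52) and Unc13b (0.50), above equality, and Vamp2 (-0.68) and Syt5 (-0.49), below it. These are among the members farthest from equality and are not neuronal markers, so they do not report on neuronal content. The part of the neuronal cells in the ratio of Snap91 was not tested.

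Of 20 genes with at least 2 measured probe sets, 10 had the same sign on the brightest and the second brightest. The share over all genes was not computed, so this count describes no trait of these genes. For Vamp2, Syt13, Syt9, Snap91 and Sytl1 no such check can be made. The widest disagreements were those of Nsf (0.83), Syt11 (0.67), Napa (0.59), Stx3 (0.59) and Syt17 (0.58). The difference was smaller than the probe set SD of 0.26 for 24 of the 40 measured members (60%), against 63.1% of all measured genes. The disagreement between probe sets holds no variation between mice, islet preparations or arrays, so a difference beyond it is not thereby supported.

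Other genes of the fusion and docking pathway showed 2 differences past 2-fold, 1 in each direction, where all measured genes had 0.652% lower and 0.516% higher. Of 79 listed genes that are not members, 59 were named on the array and 51 were measured, with a median log2 ratio of 0.00. Sytl4 (granuphilin), which docks insulin granules and is a relative of Sytl1, had 692 and 278, 2.49-fold lower. Rab3b, a GTPase of secretory vesicles, had 223 and 493, 2.21-fold higher. Each was measured on 1 probe set.

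Of the 51, 3 were at least 1.5-fold lower and 1 was at least 1.5-fold higher, against 2.95% and 4.19% of all measured genes. The 2 others that were lower, named after their values were seen, were the ER and Golgi SNAREs Sec22b (562 and 355) and Gosr1 (88.7 and 57.2). Sec22b gave -0.08 on its other measured probe set. The 11 measured SNAREs of that list had a median of -0.15, against 0.00 for the 9 measured inner membrane members described above. Its brightest genes were Vti1b (736 and 782, log2 ratio 0.09) and Use1 (678 and 892, 0.39).

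Docking and priming factors had a median log2 ratio of 0.12 over 10 measured genes, and Rab3 and Rab27 genes a median of 0.17 over 8. The exocyst had a median of 0.02 over 5 genes, and granule membrane and synaptophysin family genes -0.02 over 13. The 4 measured genes of the remaining list, Sec1/Munc18 relatives and the adaptor Napg, had a median of -0.04. Rabac1, a Rab acceptor, had 1114 and 1411 (0.34). Apart from Sytl4 and Rab3b, no gene of these lists was 1.5-fold apart.

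**Figure D4:**
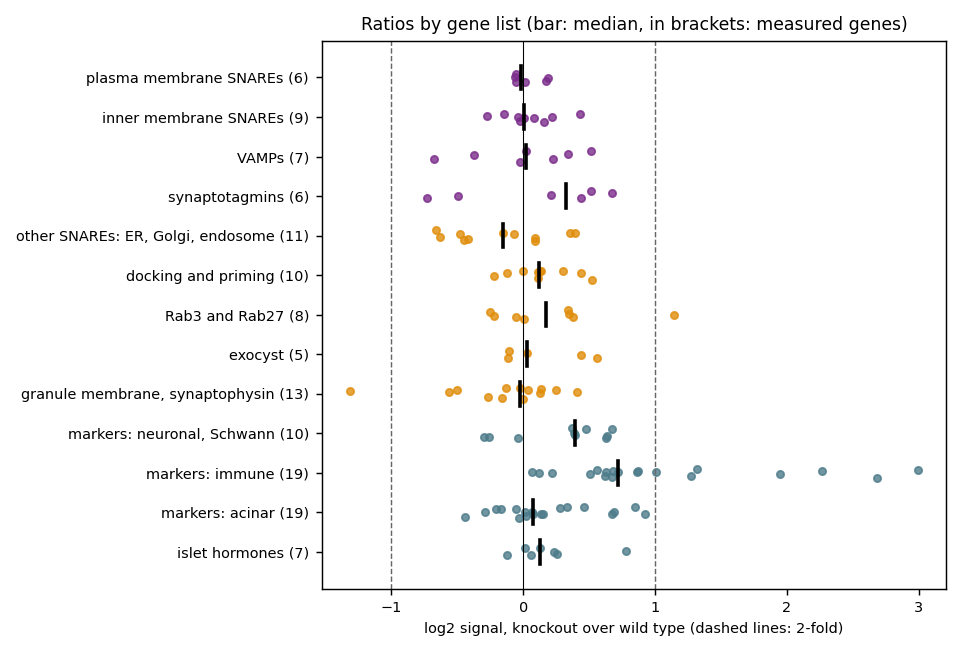
Log2 ratio of knockout over wild-type signal (horizontal axis) for each measured gene of 4 groups of exocytosis genes (purple), 5 lists of other fusion genes (orange) and 4 marker lists (blue-grey), with the median as a black bar and the number of measured genes in brackets; dashed lines mark 2-fold. The purple groups stay inside the 2-fold lines, Sytl4 and Rab3b are the orange points outside them, and the immune markers lie to the right with a median of 0.72.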

How the data were processed

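The deposited table holds linear intensities, 1 per probe set and array. The submitters' processing notes name GCOS 1.02 and no other tool, and how background was corrected or probes were summarised is not stated there. The 2% trimmed mean was 150.1 on both arrays, so the deposited intensities share a scale. The knockout array was set to the wild-type trimmed mean, signals under the 40th percentile (39.8) were raised to that value, and the log2 ratio was formed on each gene's probe set with the highest mean signal. Of 22690 probe sets, 20380 had 1 gene symbol. All 53 members matched the RefSeq table of GRCm38.p6 by gene ID. The array annotation names no genome build, so gene coordinates appear only for the RefSeq promoters.

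With 1 array per genotype, genes were counted by size (1.5-fold and 2-fold), and precision is limited by the number of arrays. The procedure was tested on simulated data (Python 3.11.15, pandas 2.3.3, statsmodels 0.14.6). Members and lists were chosen with earlier results of these data known. Named genes were all members at least 1.5-fold apart, measured or as a bound, the 3 brightest of each role, those with probe sets beyond 0.25 in opposite directions, and, of the other fusion genes, those 2-fold apart and the 3 brightest; the remaining members are described by role.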

Additional observations from a re-analysis of the deposited data

Results flagged for a closer look

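A probe set shared by Sytl3 and 2 predicted genes entered no comparison above, because it has 3 gene symbols. It drew attention because its signal was under the floor in the wild type (37.2) and above it in the knockout (61.4), at least 1.54-fold higher. Sytl3 is a synaptotagmin-like protein, and which of the 3 genes gave the signal was not tested. A probe set shared by Vamp1 and another gene was at the floor on both arrays.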

How the results depend on the processing

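No measured exocytosis gene was 2-fold apart in any of the 10 alternative settings. The numbers at least 1.5-fold lower and higher, 2 and 2, became 1 (Vamp2) and 1 (Syt9) with the floor at the 60th percentile, where 29 genes were measured. They became 0 and 0 on second brightest probe sets, which exist as measured values for 20 genes and for none of the 4 called. With the floor at the 25th percentile they were 2 and 3, Syt10 having joined the higher genes. With quantile normalisation and with loess they were 3 and 2, Syt5 having joined the lower genes. The median log2 ratio of members, 0.13, became 0.0662 with quantile normalisation and 0.0726 with loess. It was 0.0791 with the floor at the 25th percentile, 0.0349 at the 60th and 0.0231 on second brightest probe sets (0.0400 over all genes there). The changes of floor and of probe set also changed which genes were counted. How much of each shift came from that was not tested. On second brightest probe sets the other fusion genes had 0 at least 2-fold lower, 0 at least 2-fold higher, 1 at least 1.5-fold lower and 0 higher, with a median log2 ratio of -0.0646. With that change of probe set Sytl4 and Rab3b drop out, since each was measured on 1. Of 240 values of the 26 named members under alternatives, 230 moved by less than the probe set SD and 10 moved further. The deposited scale, or a changed floor for a gene above it, leaves a value almost unmoved by construction. Called values changed sign in 0 cases, but the 4 called genes have no second measured probe set. On second brightest probe sets Nsf (-0.40 to 0.43), Napa (0.15 to -0.44) and Stx3 (0.02 to -0.57) did change sign. Vamp8, Cplx1 and Snap47, close to equality, did so in some settings. The values that moved further were those of Sytl1, Vamp4, Napa, Nsf and Stx3; the bound of Sytl1 was -2.38 with the floor at the 25th percentile. No paired analysis was possible because there is 1 array per genotype, and for the same reason no replicate could be left out. Low signal limits the 13 members that were not above the floor on both arrays.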
